A study of Mus musculus with 6 samples.

Results

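Chaperones help other proteins fold, keep damaged proteins from clumping and pass them on for refolding or breakdown. Small heat shock proteins hold unfolded proteins without using ATP. HSP70 proteins bind and release their substrates in an ATP cycle that DnaJ proteins start and HSP110 proteins help to end, and HSP90 proteins finish the folding of kinases and hormone receptors. Heart muscle is rich in small heat shock proteins, which bind sarcomere and filament proteins, and the transcription factor HSF1 switches on many chaperone genes under stress through heat shock elements in their promoters.

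The 60 genes described here are all protein-coding genes whose symbols start with Hspa, Hspb, Hspd, Hspe, Hsph, Hsp90 or Dnaj and whose mean level over the 6 libraries was at least 1 FPKM (mapped fragments per kilobase of transcript, relative to the library total). They were 60 of 74 genes with such a symbol and 60 of 11385 genes tested. The members were chosen by their mean level, so the levels below are a description, and the difference between genotypes, which the choice did not use, was tested. Messenger RNA of hearts of 32-week-old mice was sequenced in 3 libraries labelled ApoE-/- Timp3-/- (libraries 4, 5 and 6, below the double mutants) and 3 labelled ApoE-/- (libraries 1, 2 and 3), littermates of the double mutants by the labels. Both groups lack apolipoprotein E, so no wild-type heart is part of the comparison, and the double mutants also lack TIMP3, a secreted inhibitor of metalloproteinases. The labels say nothing of the alleles, the sex of the mice or the part of the heart taken.

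Timp3 was still measured in the double mutants, at 19.8, 31.2 and 29.3 scaled FPKM in libraries 4, 5 and 6, against 44.7, 37.8 and 39.4 in the ApoE-/- libraries 1, 2 and 3. The 3 double mutants lay below the 3 ApoE-/- libraries (log2 difference -0.61 ± 0.19 SE, limma adjusted p = 0.288). Whether the transcripts counted include the deleted part is not known here, so groups are named by their labels. Apoe stood at 3.42, 2.32 and 1.82 scaled FPKM in the double mutants and at 3.56, 2.27 and 3.09 in the ApoE-/- hearts. Depth was 683 to 910 aligned megabases in the double mutants and 654 to 1339 in the ApoE-/- libraries.

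The libraries were heart muscle by their markers: 6 of 6 cardiomyocyte genes were measured in every library, and their summed level was 12049 to 16004 scaled FPKM in the double mutants and 9582 to 12538 in the ApoE-/- hearts. The libraries also differed in what else they held. Summed over 4 atrial genes, the level was 173, 963 and 1408 scaled FPKM in double mutant libraries 4, 5 and 6, against 1457, 810 and 122 in ApoE-/- libraries 1, 2 and 3. The 3 red cell genes found summed to 12243 in library 4 and to 113 to 1193 in the other 5 libraries. The 4 adipocyte genes summed to 0.361 to 12.3 in the double mutants and 0.710 to 71.9 in the ApoE-/- hearts, and the 4 macrophage genes to 33.7 to 47.9 in the double mutants and 31.6 to 96.2 in the ApoE-/- hearts, with library 1 highest for both lists. All 5 fibroblast and all 5 endothelial genes had negative log2 differences. They ran from -0.98 for Col3a1 to -0.02 for Dcn, and from -0.66 for Cdh5 to -0.18 for Pecam1. In each list 3 genes were lower at an unadjusted p under 0.05, beside 5.23% of all genes tested. In bulk heart RNA, fewer cells of a type and less RNA per cell cannot be told apart.

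No chaperone gene differed between the genotypes beyond the adjusted threshold. Of the 60 members, 0 had an adjusted p under 0.05 by limma (lowest 0.377), beside 5 of 11385 genes tested, or 0.0439%, of which 0.0264% were higher and 0.0176% lower in the double mutants. At an unadjusted p under 0.05 there were 6 members, 3 higher (Dnaja1, Dnajc9 and Dnajc12) and 3 lower (Hspa12a, Dnaja4 and Hsph1) in the double mutants. That is 10% of the members, beside 12.2% of all genes tested, 6.97% higher and 5.23% lower. All genes tested include 1326 pseudogenes, of which 29.4% were higher and 1.06% lower at that threshold. The members are protein-coding by rule, so the shares of all genes are not those of a like set. The count of members moved as single libraries were left out. It was 0 without library 3 and 0 without library 5, beside 8.23% and 8.41% of all genes. Without library 6 it was 2 (10.1% of all genes), without library 2 it was 3 (10.9%). Without library 1 it was 5 (10.6%), and without library 4 it was 7 (13.5%). The count was also 3, all lower in the double mutants, when the deposited FPKM were not scaled further, beside 8.42% of all genes. With library quality weights it was 12, 8 higher and 4 lower, beside 21.4% of all genes.

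The levels of the 2 groups did not overlap for 12 of the 60 members, or 20.0%, beside 19.2% of all genes. All genes are an unlike set here, since they include 1326 pseudogenes. Of those, 448 lay higher and 18 lower in the double mutants without overlap. The double mutants lay above the ApoE-/- hearts for 6 of them (Dnaja1, Dnajb1, Dnajb5, Dnajc9, Dnajc12 and Hspa14) and below for 6 (Dnaja4, Dnajb14, Dnajc21, Dnajc27, Hspa12a and Hsph1), where all genes had 9.98% above and 9.22% below. The median log2 difference of the members was -0.05, with 27 above 0 and 33 below. That of all genes was -0.01, and that of the 9824 protein-coding genes tested was -0.03. On log2(scaled FPKM + 1) the differences were small. They ran from -0.40 for Hspa12a to 0.42 for Hsp90aa1, and none reached 1.5-fold on that scale. The 95% interval of each of the 60 lay within 2-fold either way on the same scale. The median half-width of these intervals was 0.36. For low genes the added 1 FPKM shrinks both differences and intervals, so these bounds are not bounds on the levels. Mean levels of Hspa12a, for example, were 1.745 scaled FPKM in the double mutants and 2.66 in the ApoE-/- hearts. The 60 genes together came to 2109, 1915 and 1940 scaled FPKM in the double mutants and to 1666, 2143 and 2025 in the ApoE-/- hearts, so the groups overlapped.

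**Figure D1:**
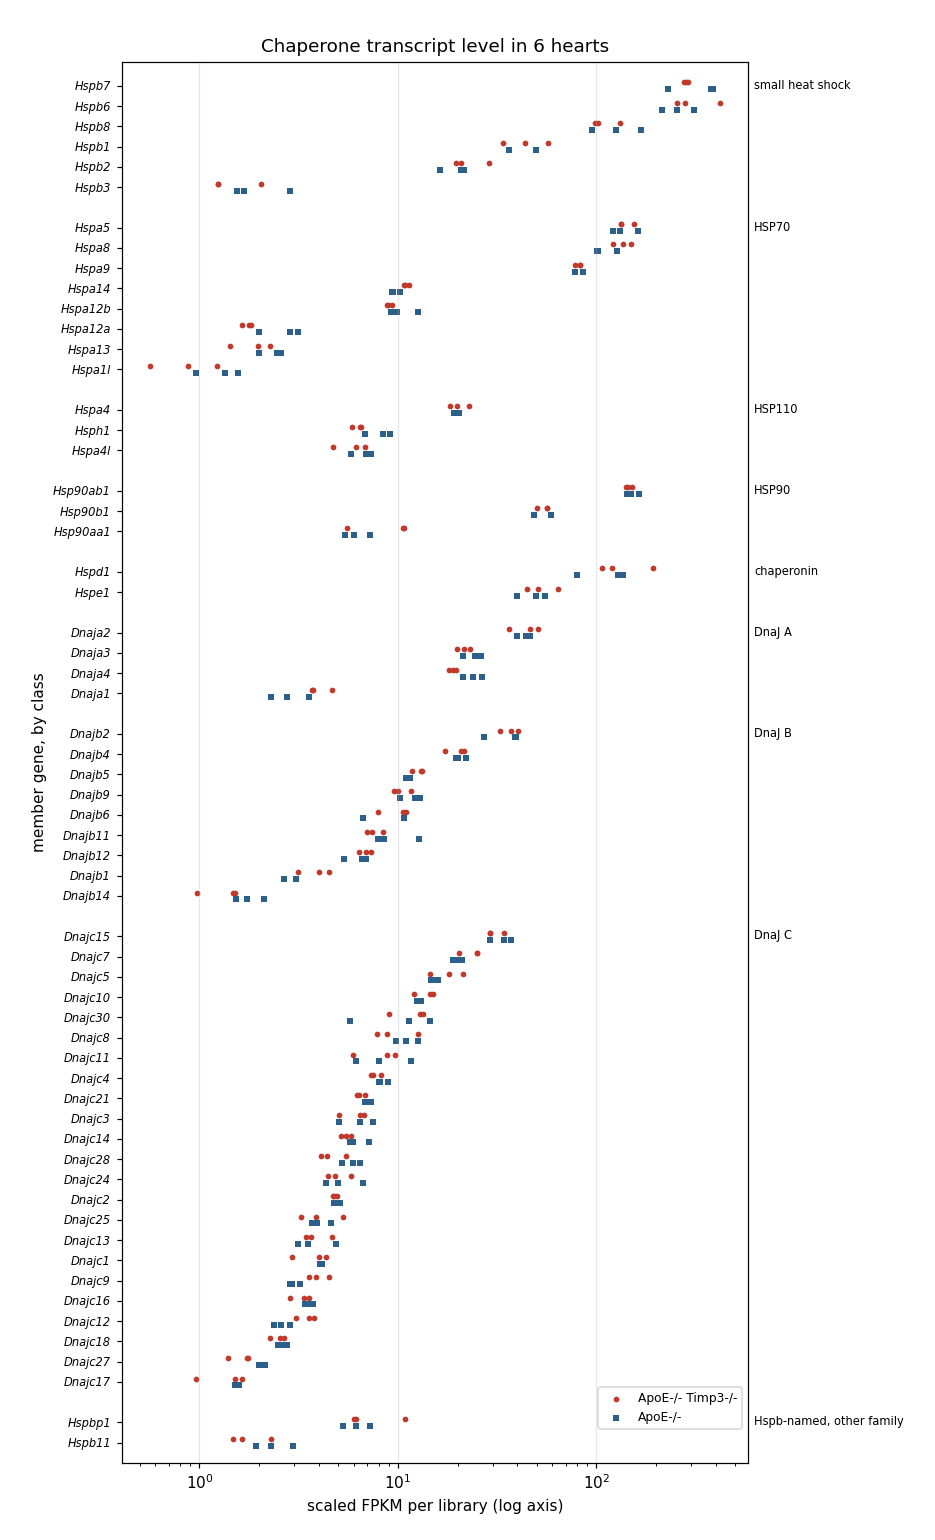
Scaled FPKM of each of the 60 chaperone genes in each library, on a log axis, by class and within a class by mean level. Red circles are the 3 double mutant libraries and blue squares the 3 ApoE-/- libraries. Levels run from 0.564 for Hspa1l in library 5 to 418 for Hspb6 in library 4, and for most genes the red and blue points overlap.

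Small heat shock proteins made up 39.8% of the members' summed FPKM with 6 genes. Hspb7, which binds filamin in heart and skeletal muscle, had the highest mean. It stood at 275, 290 and 285 scaled FPKM in the double mutants, against 230, 385 and 380 in the ApoE-/- hearts. The double mutants lay close together inside the wider range of the ApoE-/- libraries, of which 1 was below and 2 were above them (log2 difference -0.19 ± 0.21 SE, adjusted p = 0.766), and the difference was -0.43 without library 1 and -0.062 without library 2. Hspb6, also called HSP20, a small heat shock protein phosphorylated after adrenergic stimulation, stood at 418, 281 and 256 in the double mutants and at 214, 309 and 255 in the ApoE-/- hearts. Library 4 was the highest, and the other 5 libraries overlapped (0.28 ± 0.23 SE, adjusted p = 0.676), with a log2 difference of 0.07 to 0.42 as each library was left out.

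Hspb8, which works with the cofactor BAG3 in clearing damaged filamin, had 132, 102 and 98.7 scaled FPKM in the double mutants and 95.7, 169 and 125 in the ApoE-/- hearts. Hspb1, known as HSP25 in mice, had 56.8, 43.7 and 33.8 in the double mutants and 36.5, 49.8 and 36.2 in the ApoE-/- hearts. Both overlapped between genotypes. Hspb2 and Hspb3, partners in muscle, were less abundant, Hspb2 at 19.6 to 28.6 in the double mutants and 16.3 to 21.6 in the ApoE-/- hearts, and Hspb3 at 1.24 to 2.05 in the double mutants and 1.55 to 2.87 in the ApoE-/- hearts. Of the 6 genes 3 had a positive and 3 a negative log2 difference (median -0.04), and 0 reached an unadjusted p under 0.05.

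The 6 small heat shock genes varied between libraries of one genotype more than between genotypes, and their median log2 difference of -0.04 was -0.16 without library 1 and 0.14 without library 2. Averaged over them, libraries deviated from the gene means by 0.27, -0.09 and -0.19 (log2) in double mutant libraries 4, 5 and 6, and by -0.29, 0.30 and 0.00 in ApoE-/- libraries 1, 2 and 3. Cryab, the related alpha-B crystallin and a further abundant heart chaperone outside the symbol rule, was at 712, 507 and 536 scaled FPKM in the double mutants and 561, 836 and 713 in the ApoE-/- hearts (log2 difference -0.26 ± 0.21 SE, adjusted p = 0.662). With reference transcripts alone its log2 difference was -4.33 ± 2.12 SE, with an adjusted p of 0.563. Its order among libraries was similar, with libraries 2, 3 and 4 above the other 3. Those 3 libraries also had little of 3 of the 4 atrial genes, Myl7, Myl4 and Sln. The atrial light chain Myl7 was at 13.1 in library 4 of the double mutants and 2.07 and 1.32 in ApoE-/- libraries 2 and 3. Myl7 stood at 193 and 227 in double mutant libraries 5 and 6 and 351 in ApoE-/- library 1. The fourth atrial gene, Nppa, did not follow this order, at 138, 547 and 843 in double mutant libraries 4, 5 and 6 and 706, 797 and 113 in ApoE-/- libraries 1, 2 and 3. The part of atrial content in the small heat shock levels was not tested.

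**Figure D2:**
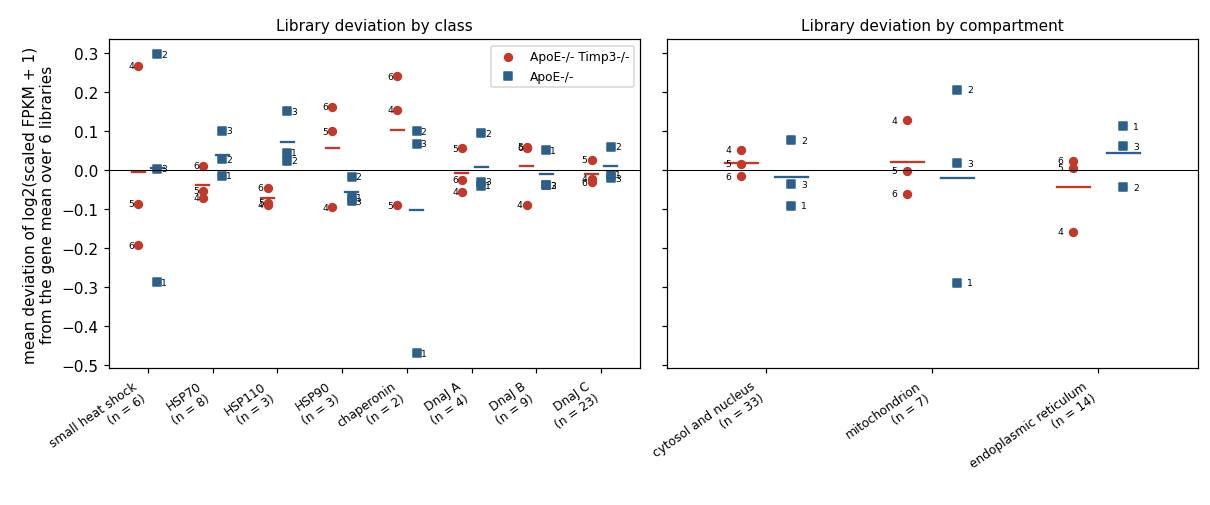
Mean deviation of each library from the gene means over 6 libraries, on log2(scaled FPKM + 1), for 8 chaperone classes (left) and 3 compartments (right). Each point is 1 library, with its number beside it, red circles for the double mutants and blue squares for ApoE-/-; short lines are group means. The small heat shock and mitochondrial genes spread widely within a genotype, library 1 being lowest for both, while the 23 DnaJ C genes stay between -0.03 and 0.06.

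HSP70 proteins held 18.7% of the summed FPKM with 8 genes, and 3 of them carried nearly all of it. Hspa5, the reticulum HSP70 also called BiP, stood at 154, 133 and 133 scaled FPKM in the double mutants and at 131, 121 and 162 in the ApoE-/- hearts. Hspa8, the constitutive cytosolic HSP70, stood at 121, 149 and 136 in the double mutants and at 102, 127 and 101 in the ApoE-/- hearts. Library 4 of the double mutants lay below library 2 of the ApoE-/- hearts, and the other values did not cross (log2 difference 0.30 ± 0.15 SE, unadjusted p = 0.083, adjusted p = 0.491). Hspa9, the mitochondrial HSP70 called mortalin, was among the steadiest members, at 78.0, 82.6 and 82.7 in the double mutants and 78.4, 78.0 and 85.3 in the ApoE-/- hearts, a coefficient of variation of 3.88% over the 6 libraries. Over all members that coefficient ran from 3.39% (Dnajc2) to 34.8% (Hspb3), with a median of 16.6%.

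Hspa12a, a distant and atypical member of the HSP70 family on chromosome 19 (58870241 to 58935474, minus strand, build NCBIM37), had 1.64, 1.82 and 1.77 scaled FPKM in the double mutants, below the 1.99 to 3.15 in the ApoE-/- hearts. Its log2 difference of -0.40 ± 0.16 SE had an unadjusted p of 0.035 and an adjusted p of 0.377, and it ran from -0.54 to -0.31 as each library was left out. Hspa12b, its endothelial relative, stood at 8.84 to 9.31 in the double mutants and 9.26 to 12.7 in the ApoE-/- hearts (-0.21 ± 0.14 SE). Beside it, the endothelial gene Cdh5 had a log2 difference of -0.66 and Kdr one of -0.54, with no overlap between groups for either, and the part of endothelial content was not tested. Of the 8 HSP70 genes 4 had a positive and 4 a negative log2 difference, with a median of -0.10.

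The stress-inducible HSP70 genes were nearly silent. Hspa1a and Hspa1b, which heat and ischaemia raise strongly, had mean deposited levels of 0.360 and 0.382 FPKM, below the level that made a gene a member. Hspa2, mainly a testis gene, was just outside at 0.971, and Hspa1l, Dnajc17 and Dnajb14 were just inside at 1.10, 1.46 and 1.58. Hspa1a had 0.365, 0.387 and 0.475 scaled FPKM in the double mutants and 0.334, 0.319 and 0.273 in the ApoE-/- hearts, and Hspa1b had 0.562, 0.566 and 0.352 in the double mutants and 0.298, 0.254 and 0.274 in the ApoE-/- hearts. For both, the double mutants lay above the ApoE-/- hearts. In a fit with the filter lowered to 0.1 FPKM, Hspa1b had a log2 difference of 0.23 ± 0.10 SE (unadjusted p = 0.052, adjusted p = 0.482) and Hspa1a one of 0.11 ± 0.09 SE (adjusted p = 0.704). The coding sequences of the pair are nearly identical, so their reads may be split between them, and at such levels the added 1 FPKM compresses differences. Of Hspa1l, 72.0% of the exonic bases overlapped a gene on the other strand (Gm10501), and no source used here says whether strand was used.

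HSP110 proteins, which exchange the nucleotide on HSP70, had 3 members with 1.70% of the summed FPKM. Hsph1, also called HSP105, was lower in the double mutants, at 6.51, 6.47 and 5.87 scaled FPKM against 6.81, 8.41 and 9.08 in the ApoE-/- hearts. The groups did not overlap (log2 difference -0.31 ± 0.13 SE, unadjusted p = 0.048, adjusted p = 0.403). Hspa4, known as APG2, was at 18.4 to 22.8 in the double mutants and 19.3 to 20.2 in the ApoE-/- hearts, and Hspa4l at 4.72 to 6.79 in the double mutants and 5.78 to 7.34 in the ApoE-/- hearts. The class median was -0.16, with 1 gene above 0 and 2 below.

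HSP90 genes taken in by the symbol rule, 3 in number with 10.7% of the summed FPKM, overlapped between genotypes. Hsp90ab1, the constitutive cytosolic HSP90, had 151, 142 and 144 scaled FPKM in the double mutants and 142, 163 and 150 in the ApoE-/- hearts. Hsp90b1, the reticulum form GRP94, had 56.1, 50.4 and 56.4 in the double mutants and 58.9, 48.4 and 59.3 in the ApoE-/- hearts. Their log2 differences were -0.06 (95% interval -0.34 to 0.22) and -0.03 (-0.33 to 0.28). Hsp90b1 lies 341 kb from Timp3 on chromosome 10, at 86152954 to 86168254 on the minus strand (NCBIM37). Hsp90aa1, the inducible cytosolic HSP90, had the highest log2 difference of all members, 0.42 ± 0.24 SE, at 5.55, 10.6 and 10.7 in the double mutants and 5.98, 7.22 and 5.43 in the ApoE-/- hearts. Library 4 fell among the ApoE-/- values, and the adjusted p was 0.556. With its strongest transcript alone the log2 difference was -0.12.

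The chaperonin of mitochondria is a barrel of HSP60, from Hspd1, closed by HSP10, from Hspe1, and the genes lie head to head on chromosome 1. Hspd1 stood at 119, 107 and 193 scaled FPKM in the double mutants and at 80.2, 128 and 137 in the ApoE-/- hearts, and Hspe1 at 64.4, 51.0 and 44.7 in the double mutants and at 39.8, 55.4 and 49.7 in the ApoE-/- hearts. Library 1 was lowest for both genes, and the highest values were in library 6 for Hspd1 and library 4 for Hspe1. Neither difference passed (0.27 ± 0.29 SE and 0.14 ± 0.18 SE, adjusted p 0.751 and 0.810). The Hspd1 difference came to 0.012 when library 6 was left out, to 0.027 when library 1 was, and to 0.44 when library 5 was. Hspd1 had 12 transcripts assembled by the authors within single libraries; with reference transcripts alone its log2 difference was 2.01, and no member then had an adjusted p under 0.429.

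Promoter sequences from RefSeq (GRCm38.p6, 250 bases before to 50 after each start) were matched for 48 of the 60 genes. The 3-unit heat shock element GAANNTTCNNGAA, searched on both strands, was in the promoters of 4 members, or 8.33%, beside 0.662% of the 27025 genes with a promoter and 0.603% of all promoters, of which a gene can have several. Those 4 were Hspd1, Hspe1, Dnajb6 and Hsph1, of which 3 had a positive and 1 a negative log2 difference. The shorter GAANNTTC, which every 3-unit match contains, was found for 11 members, or 22.9%, beside 9.04% of genes and 7.86% of all promoters, with 6 positive and 5 negative. The windows of the 4 genes are shown because they are the members with the longer match, with the matched bases in capitals. Hspd1 and Hspe1 share one window, given here on the plus strand, where 2 matches overlap (chr1:55088019-55088116). The Dnajb6 window is chr5:29735812-29735904 on the plus strand and the Hsph1 window chr5:149636266-149636340 on the minus strand.
Hspe1: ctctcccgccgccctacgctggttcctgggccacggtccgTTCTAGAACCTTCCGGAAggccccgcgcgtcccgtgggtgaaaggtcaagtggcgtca
Dnajb6: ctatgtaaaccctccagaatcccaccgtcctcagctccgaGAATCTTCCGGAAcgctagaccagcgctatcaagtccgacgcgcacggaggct
Hsph1: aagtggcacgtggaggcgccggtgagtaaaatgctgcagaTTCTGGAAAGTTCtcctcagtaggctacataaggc

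Several reticulum members are known targets of the unfolded protein response, whose factors bind the ER stress element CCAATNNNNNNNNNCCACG. On either strand it was in the promoters of 3 members, or 6.25%, beside 0.137% of genes and 0.119% of all promoters. The 3 were Hspa5, Hsp90b1 and Dnajc3, the last an inhibitor of the kinase PERK. They are shown with the element in capitals because no other member of the 48 matched: Hspa5 at chr2:34771985-34772083 on the plus strand, Dnajc3 at chr14:118937787-118937885 on the plus strand and Hsp90b1 at chr10:86705493-86705694 on the minus strand, where it occurs 2 times. Their log2 differences were 0.03, -0.04 and -0.03 for Hspa5, Dnajc3 and Hsp90b1.
Hspa5: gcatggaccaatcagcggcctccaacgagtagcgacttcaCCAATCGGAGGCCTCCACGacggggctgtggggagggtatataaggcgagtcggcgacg
Dnajc3: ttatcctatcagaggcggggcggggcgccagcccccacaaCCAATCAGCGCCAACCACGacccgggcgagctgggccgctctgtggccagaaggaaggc
Hsp90b1: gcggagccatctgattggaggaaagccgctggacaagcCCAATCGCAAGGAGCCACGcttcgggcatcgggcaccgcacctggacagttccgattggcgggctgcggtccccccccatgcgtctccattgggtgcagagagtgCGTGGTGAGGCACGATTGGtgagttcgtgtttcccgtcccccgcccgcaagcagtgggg

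DnaJ proteins, which hand substrates to HSP70 and trigger its ATP hydrolysis, were the largest group, 36 genes with 19.5% of the summed FPKM and a median log2 difference of -0.05. The 4 class A genes had log2 differences of both signs. Dnaja1, a main cytosolic partner of HSP70, had 3.74, 4.63 and 3.68 scaled FPKM in the double mutants and 3.55, 2.75 and 2.30 in the ApoE-/- hearts, with no overlap (log2 difference 0.38 ± 0.16 SE, unadjusted p = 0.044, adjusted p = 0.391). Dnaja4 had 19.6, 19.0 and 18.1 in the double mutants and 21.2, 26.6 and 23.9 in the ApoE-/- hearts, also with no overlap but in the other direction (-0.32 ± 0.12 SE, unadjusted p = 0.036, adjusted p = 0.380). Of Dnaja4, 44.1% of the exonic bases overlapped Wdr61 on the other strand. Dnaja2, the most abundant, had 36.3 to 50.8 in the double mutants and 39.9 to 46.1 in the ApoE-/- hearts. Dnaja3, the mitochondrial member, had 19.8 to 23.1 in the double mutants and 21.2 to 26.4 in the ApoE-/- hearts.

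The 9 class B genes had a median log2 difference of 0.07, with 5 above 0 and 4 below. Dnajb1, known as HSP40 and the stress-inducible partner of HSP70, had 3.14, 4.50 and 4.01 scaled FPKM in the double mutants and 3.05, 3.05 and 2.68 in the ApoE-/- hearts. The groups were apart by little (0.31 ± 0.14 SE, unadjusted p = 0.065, adjusted p = 0.446). Dnajb5 was also higher without overlap, at 11.8 to 13.2 in the double mutants and 11.01 to 11.5 in the ApoE-/- hearts. Dnajb6, mutated in a human limb-girdle muscular dystrophy, had 7.94, 10.98 and 10.6 in the double mutants and 10.8, 6.64 and 6.68 in the ApoE-/- hearts, with library 1 among the double mutants (0.28 ± 0.21 SE, adjusted p = 0.647). Dnajb2, the most abundant, had 32.9 to 40.2 in the double mutants and 27.1 to 39.6 in the ApoE-/- hearts, and Dnajb4 had 17.3 to 21.7 in the double mutants and 19.6 to 21.97 in the ApoE-/- hearts. Dnajb14, a reticulum membrane protein, lay lower without overlap, at 0.977 to 1.51 in the double mutants against 1.52 to 2.11 in the ApoE-/- hearts. The groups nearly touched, with library 5 at 1.514 and library 2 at 1.524. The log2 difference of -0.27 kept its sign under 15 of 16 alternatives and reached 0.17 at the highest.

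Of the 23 class C genes, which share only the J domain, 8 had positive and 15 negative log2 differences, with a median of -0.06. Dnajc9, a histone chaperone, had 4.49, 3.85 and 3.57 scaled FPKM in the double mutants and 3.22, 2.85 and 2.93 in the ApoE-/- hearts (0.31 ± 0.12 SE, unadjusted p = 0.037, adjusted p = 0.380). Dnajc12, a partner of the aromatic amino acid hydroxylases, had 3.06, 3.56 and 3.78 in the double mutants and 2.58, 2.85 and 2.38 in the ApoE-/- hearts (0.31 ± 0.12 SE, unadjusted p = 0.039, adjusted p = 0.381). Both were higher in 3 of 3 double mutants. The most abundant was Dnajc15, a mitochondrial import protein, at 29.1 to 34.1 in the double mutants and 29.2 to 37.3 in the ApoE-/- hearts. Dnajc7, a co-chaperone of both HSP70 and HSP90, had 20.2 to 25.1 in the double mutants and 18.9 to 21.1 in the ApoE-/- hearts. Dnajc5, the cysteine string protein, had 14.4 to 21.4 in the double mutants and 14.7 to 15.9 in the ApoE-/- hearts. Dnajc21 and Dnajc27 were lower without overlap. Hspbp1 and Hspb11, which the symbol rule takes in but which are no small heat shock proteins, had log2 differences of 0.23 and -0.27, adjusted p 0.733 and 0.594.

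**Figure D3:**
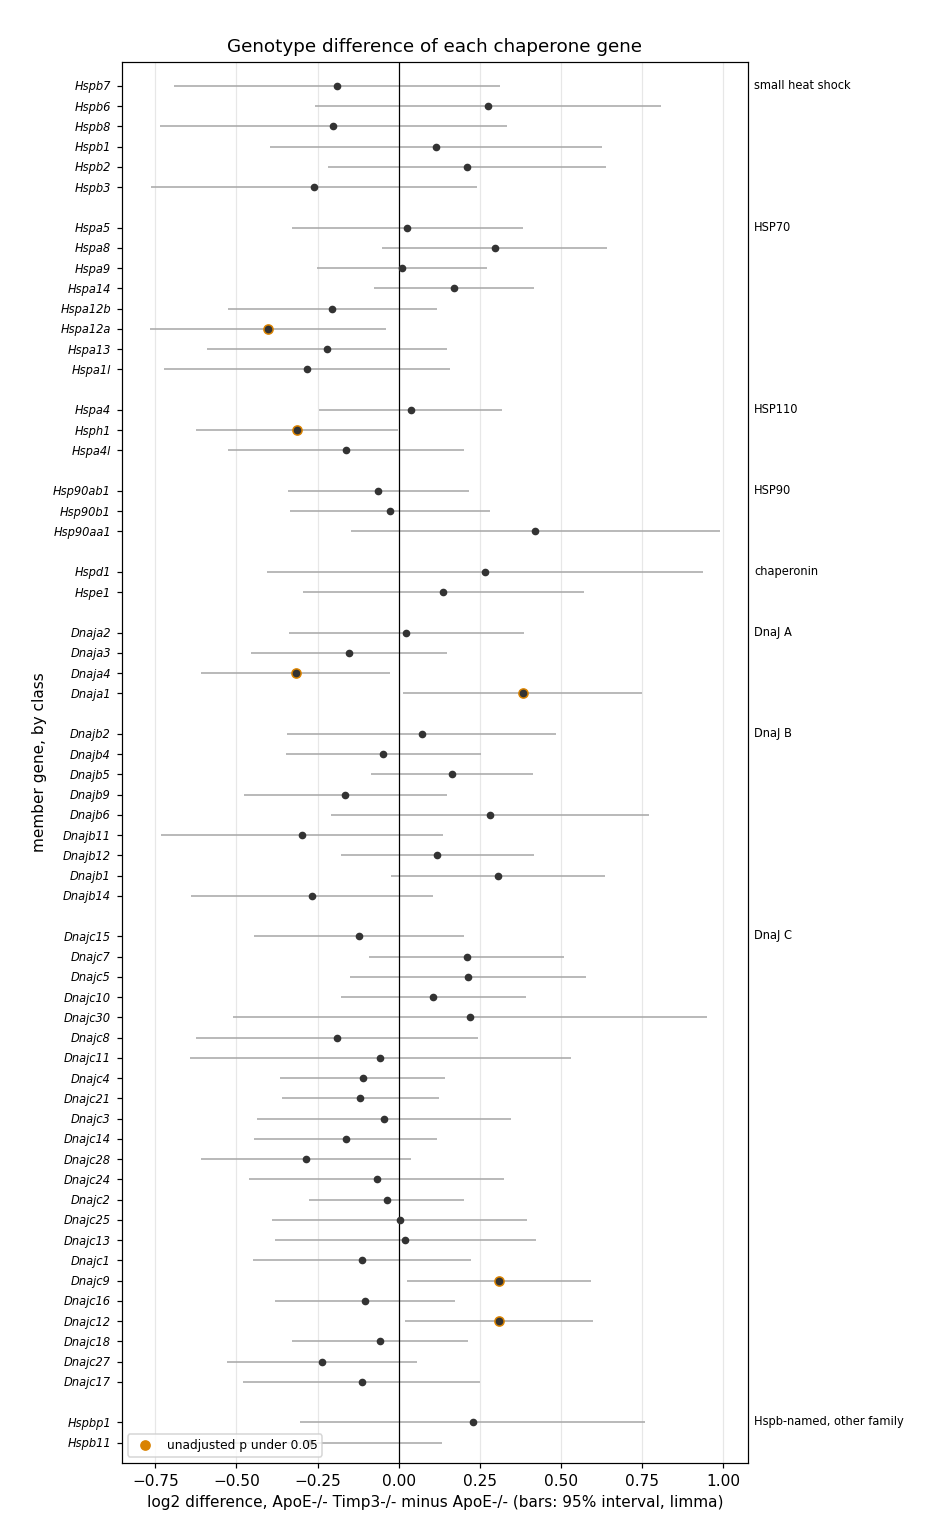
Log2 difference between genotypes, double mutants minus ApoE-/-, for each of the 60 chaperone genes, with 95% intervals from limma, by class. Orange points are the 6 genes at an unadjusted p under 0.05, 3 to the right and 3 to the left of 0; none passed the adjusted threshold. The differences run from -0.40 for Hspa12a to 0.42 for Hsp90aa1.

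By compartment, the 33 cytosolic and nuclear genes, with 68.1% of the summed FPKM, had a median log2 difference of 0.02, 18 above 0 and 15 below. The sign of this median did not hold: it was -0.04 without further scaling and -0.05 with reference transcripts alone. The 7 mitochondrial genes, with 17.0%, had a median of 0.01, 4 above and 3 below, and this sign did not hold either: the median was -0.063 without further scaling, -0.083 without library 1 and 0.16 without library 2. The 14 reticulum genes, with 13.4%, had a median of -0.08, 4 above and 10 below, beside 51.2% of all genes below 0. All genes include the 1326 pseudogenes, of which only 268 lay below 0. Summed levels of the 3 compartments were 1468, 1321 and 1266 scaled FPKM (cytosol and nucleus), 342, 313 and 385 (mitochondrion) and 271, 254 and 261 (reticulum) in the double mutants. In the ApoE-/- hearts they were 1104, 1520 and 1354, 263, 351 and 348, and 268, 237 and 292 in the same order of compartments. The groups overlapped in all 3 compartments. The remaining 6 genes, with no compartment assigned, had a median of -0.24.

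Several chaperone genes have near-identical pseudogene copies elsewhere in the genome that held much of the signal. Pseudogenes at least 95% identical to a member were found for 8 members. They held 87.4% of the summed FPKM of gene and copies for Dnaja1, with 3 copies, 84.0% for Dnajb6, with 4, and 77.0% for Hsp90aa1, with 2. With 1 copy each, the shares were 54.9% for Dnajc9, 45.8% for Dnajc17, 45.2% for Hspb1, 43.8% for Hspa8 and 37.4% for Hspd1. The levels of these genes are therefore uncertain, since reads may have been placed on either. The share of Dnajc9 is the least secure, since its copy aligned over only 125 bases. FPKM divide by length, so a level on so short a copy can rest on few fragments. That copy was too short to be tested itself. Dnajc19, a mitochondrial import gene, was listed at 0 in all 6 libraries, while Dnajc19-ps, 99.1% identical to it, had 27.8 to 36.3 scaled FPKM in the double mutants and 25.6 to 28.9 in the ApoE-/- hearts.

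With their copies added, the cytosolic chaperones Dnaja1, Hspa8 and Dnajb6 had higher values in all 3 double mutants than in any ApoE-/- heart. Dnaja1 with its copies came to 32.9, 39.96 and 29.6 scaled FPKM in the double mutants, against 24.6, 19.4 and 17.6 in the ApoE-/- hearts. The log2 difference was 0.71 ± 0.17 SE (unadjusted p = 0.004, adjusted p = 0.254). Hspa8 with its copy came to 218, 271 and 248 in the double mutants and 183, 209 and 182 in the ApoE-/- hearts (0.36 ± 0.14 SE, unadjusted p = 0.036, adjusted p = 0.381). Dnajb6 with its copies came to 55.5, 68.3 and 64.6 in the double mutants and 48.7, 52.7 and 45.5 in the ApoE-/- hearts (0.35 ± 0.13 SE, unadjusted p = 0.030, adjusted p = 0.364). Hsp90aa1, Hspd1, Hspb1, Dnajc9 and Dnajc17 overlapped between genotypes with their copies added. Their log2 differences were then 0.23, 0.34, 0.06, 0.38 and 0.001. Dnajc9, which did not overlap alone, came with its copy to 10.8, 8.53 and 7.27 in the double mutants. In the ApoE-/- hearts this sum was 6.94, 7.62 and 5.23 (limma unadjusted p = 0.077, adjusted p = 0.475). Dnajc17 had a log2 difference of -0.11 alone. With copies added, 0 members passed the adjusted threshold and 7 had an unadjusted p under 0.05, which is 11.7%, beside 12.1% of all genes in that fit.

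The pseudogenes lay higher as a class, which touches these sums. Of the 14 tested copies 12 had a positive log2 difference (median 0.37), 8 had an unadjusted p under 0.05, all higher in the double mutants, and 0 passed the adjusted threshold. Over all 1326 pseudogenes tested, 1058 had a positive log2 difference (median 0.25), and 29.4% were higher at an unadjusted p under 0.05, beside 6.97% of all genes tested. The double mutants lay higher without overlap for 7 of the 14 copies, or 50%. The same held for 33.8% of all pseudogenes tested, beside 9.98% of all genes tested. Averaged over these pseudogenes, libraries 4, 5 and 6 of the double mutants deviated by 0.23, 0.10 and 0.05 (log2) and ApoE-/- libraries 1, 2 and 3 by -0.18, -0.03 and -0.16. What part of the sums of Dnaja1, Hspa8 and Dnajb6 this shift makes up was not tested.

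**Figure D4:**
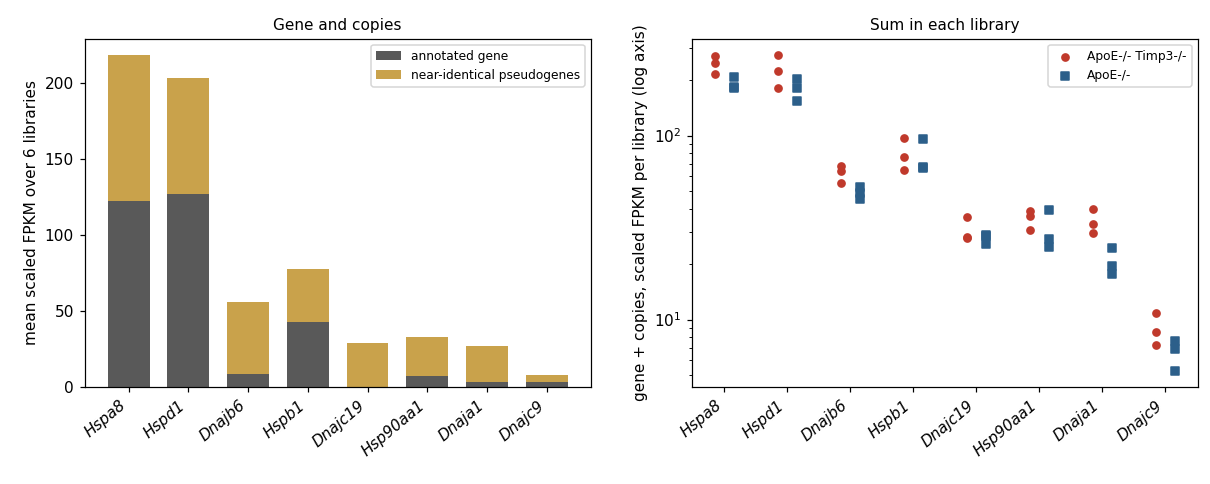
Left, mean scaled FPKM over 6 libraries of 8 chaperone genes (grey) and, stacked on it, of their near-identical pseudogenes (gold). The member Dnajc17 is left out for its low sum, and Dnajc19, listed at 0 and no member, is included. Right, the sum of gene and copies in each library on a log axis, red circles for the double mutants and blue squares for ApoE-/-. For Hspa8, Dnajb6 and Dnaja1 the 3 red points lie above the 3 blue ones. Of all pseudogenes tested, 33.8% lay higher in the double mutants without overlap.

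The partners of these chaperones gave no call either. None of the genes in 6 lists of cofactors and targets had an adjusted p under 0.05 by limma. Of the heat shock factors, Hsf1 stood at 4.81, 6.03 and 4.66 scaled FPKM in the double mutants and 6.39, 6.06 and 5.16 in the ApoE-/- hearts (log2 difference -0.16 ± 0.14 SE, adjusted p = 0.691), and of the 5 genes of that list 3 were tested and 0 had an unadjusted p under 0.05. The 12 HSP70 cofactors, among them Bag3, had a median of -0.08 with 5 above and 7 below 0, and 0 at an unadjusted p under 0.05. Of the 20 genes listed as HSP90 co-chaperones 12 lay above and 8 below 0 (median 0.04). That list also holds Trap1, which is itself the mitochondrial HSP90. At an unadjusted p under 0.05 there was 1 gene, higher in the double mutants, where 6.97% of all genes tested were higher. The gene was Aarsd1, at 13.3, 9.24 and 8.38 in the double mutants and 6.81, 7.85 and 7.37 in the ApoE-/- hearts.

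Of the 20 genes in the HSP90 co-chaperone list 2, Aarsd1 among them, lay higher in the double mutants without overlap and 3 lay lower. Over all genes these shares were 9.98% and 9.22%. Fkbp4, an immunophilin of steroid receptor complexes, and Ahsa1, which stimulates the HSP90 ATPase, were among the 3 that lay lower. Fkbp4 had 52.1, 43.9 and 43.2 scaled FPKM in the double mutants and 53.0, 56.3 and 62.1 in the ApoE-/- hearts, and Ahsa1 had 16.9, 16.1 and 16.8 in the double mutants and 19.2, 19.7 and 20.5 in the ApoE-/- hearts. Their log2 differences were -0.30 and -0.24, with adjusted p of 0.423 and 0.411. The 8 genes of the TRiC ring, the cytosolic chaperonin that folds actin and tubulin, had a median of 0.12 with 6 above 0, and 0 at an unadjusted p under 0.05. Its smallest p was that of Cct4, at 35.1, 33.7 and 34.3 in the double mutants and 27.2, 32.6 and 28.1 in the ApoE-/- hearts (0.23 ± 0.12 SE, adjusted p = 0.504). The 8 crystallin and mitochondrial protease genes tested had a median of -0.06, and 0 at an unadjusted p under 0.05.

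Of 24 reticulum stress targets tested 10 lay above and 14 below 0 (median -0.03). At an unadjusted p under 0.05 there were 2, both lower, beside 12.2% of all genes tested in either direction and 5.23% lower. Sdf2l1, which works with BiP and DNAJB11, had 1.02, 0.580 and 0.839 scaled FPKM in the double mutants and 1.52, 1.63 and 1.94 in the ApoE-/- hearts (log2 difference -0.58 ± 0.15 SE, unadjusted p = 0.007, adjusted p = 0.257). Its mean deposited level, 1.27 FPKM, was near the filter of 1 FPKM. Syvn1, the ubiquitin ligase of reticulum-associated degradation, had 2.77, 2.46 and 2.62 in the double mutants and 3.28, 3.47 and 3.71 in the ApoE-/- hearts (-0.31 ± 0.11 SE, adjusted p = 0.346). Both lay lower in 3 of 3 double mutants. Herpud1, of the same pathway, lay higher without overlap, at 53.8 to 59.8 in the double mutants and 46.7 to 49.8 in the ApoE-/- hearts (0.23 ± 0.11 SE, adjusted p = 0.464). Dnajb11, the BiP partner among the members, had 7.40, 8.43 and 6.98 in the double mutants and 12.8, 8.49 and 7.95 in the ApoE-/- hearts, with library 5 above library 3 (-0.30 ± 0.18 SE, adjusted p = 0.588).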

How the data were processed

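For every library the authors deposited a list of Cufflinks transcripts carrying FPKM and coverage, per the file headers. Alignment and assembly used TopHat, Bowtie and Cufflinks with NCBIM37, per the submitters' processing notes. No source used here gives versions, read length or strand settings. Coordinates are from the files unless GRCm38.p6 is named. A gene's level was the sum of its reference transcripts and of assembled transcripts of at least 300 nt that overlapped it by at least 50%. Assembled ones held 34.0% to 39.6% of the aligned bases. Of 36757 genes, 193 lacking a transcript in a file were left out. Median-of-ratios factors (0.896 to 1.17) put the libraries on a common scale. Both genotypes were compared on log2(scaled FPKM + 1) by limma 3.58.1 (R 4.3.3), two-sided, with a trend on mean level. Benjamini-Hochberg adjustment was over the 11385 genes with a mean of at least 1 FPKM and a reference transcript of at least 300 nt. The procedure was tested on simulated data. The added 1 FPKM shrinks differences of genes with low levels. With no more known of how the mice relate, a p-value reflects only how far these 6 libraries scatter. Reads per gene are unknown, so no counting interval is given, and an FPKM of 0 can be a failed estimate. Near-identical copies were found with blastn 2.17.0, as pseudogene transcripts at least 95% identical over at least 50% of their length. Classes, compartments and lists are described by counts and medians, with no test. Genes were named by a rule: members at an unadjusted p under 0.05, the 3 most abundant of each class and compartment, the 3 of smallest p of each list, those next to the threshold, and a few set by name. Further members whose groups did not overlap, Hspb2, Hspb3, Hspa12b, Dnajc2, Dnajc3, Dnajb11, Hspbp1, Hspb11, Fos, Fosb and the copies were added after their values were seen. The members and lists were chosen with earlier results of these data known.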

Additional observations from a re-analysis of the deposited data

How the results depend on the processing

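No paired analysis was possible because the labels number the libraries 1 to 6, with no number shared between groups. The count of 0 members past the adjusted threshold held under all 16 alternatives, with a lowest adjusted p of 0.077 with library quality weights. The count of members at an unadjusted p under 0.05, 6 as reported, was 3 without further scaling and 12 with library quality weights. Over all genes these shares were 8.42% and 21.4%. As each library was left out the count was 0 to 7, beside 8.23% to 13.5% of all genes. The 5 genes called among all genes were 3 with a pseudocount of 0.1, 9 with a filter at 0.1 FPKM, 102 with library quality weights, 0 with genes listed at 0 in any library left out, and 3 to 11 as each library was left out. Leaving out the genes listed at 0 removed no chaperone member. Class medians moved to -0.0051 for HSP70 and 1.07 for the chaperonin pair with reference transcripts alone. Without further scaling they were -0.1 for HSP90, -0.14 for DnaJ A, -0.12 for DnaJ C and -0.042 for cytosolic genes. With quantile normalization they were -0.18 for HSP90, -0.17 for DnaJ A, -0.048 for DnaJ B and -0.043 for cytosolic genes. With the strongest transcript they were -0.084 for HSP90, -0.12 for DnaJ B, 0.0084 for DnaJ C and -0.054 for cytosolic genes, whose median was -0.048 with reference transcripts alone. The mitochondrial median was -0.063 without further scaling, -0.069 with quantile normalization, -0.0051 with reference transcripts alone and -0.012 with the strongest transcript. As each library was left out, medians ran from -0.16 to 0.14 for small heat shock genes, 0.016 to 0.30 for the chaperonin pair, -0.26 to -0.042 for HSP110, -0.052 to 0.026 for HSP90, -0.14 to -0.0083 for DnaJ A, -0.065 to 0.16 for DnaJ B, -0.037 to 0.067 for cytosolic and -0.083 to 0.16 for mitochondrial genes. Of the 60 members 33 kept the sign of their log2 difference under every alternative in which they were tested, 19 changed it in at least 1 fit without a library and 22 under at least 1 other alternative. None had been called. Among the 32 members named by the rule, those that changed sign without further scaling were Hspa4 (-0.033), Hspa9 (-0.063), Dnajb2 (-0.00018), Hspa5 (-0.047) and Dnaja2 (-0.049). With quantile normalization they were Hspb1 (-0.043), Hspa4 (-0.022), Hspa9 (-0.14), Dnajb2 (-0.048), Hspa5 (-0.17), Dnaja2 (-0.11) and Hspe1 (-0.015). With reference transcripts alone they were Hspb1 (-0.047), Hspa9 (-0.0051) and Dnajc7 (-2.97), and with the strongest transcript Hspb1 (-0.054), Hsp90aa1 (-0.12), Hspa9 (-0.012) and Dnajb2 (-0.21). With library quality weights they were Hspa4 (-0.041), Hspa9 (-0.017), Dnajb2 (-0.075), Hspa5 (-0.16) and Dnajb4 (0.053). Among the same 32 members, log2 differences crossed 0 as each library was left out for Hspb1 (-0.067 to 0.30), Hsp90b1 (-0.12 to 0.026), Hspa4 (-0.042 to 0.11), Hspa9 (-0.012 to 0.051) and Dnajb2 (-0.10 to 0.16). They also did for Hspa5 (-0.061 to 0.15), Dnajb4 (-0.11 to 0.047), Dnaja2 (-0.074 to 0.16), Hspb8 (-0.40 to 0.0062), Hspbp1 (-0.018 to 0.36) and Hspe1 (-0.0024 to 0.26). The alternative with copies added was chosen after seeing the data. The causes of these moves were not tested. Depth in reads per gene is unknown, so how far it limits the low genes, such as Hspa1a and Hspa1b, could not be judged.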

Other observations

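The early response gene Zfp36, which encodes an RNA-binding protein that destabilises cytokine messages, had 12.4, 13.8 and 11.8 scaled FPKM in the double mutants, against 6.10, 8.75 and 9.28 in the ApoE-/- hearts. The groups did not overlap (log2 difference 0.61 ± 0.16 SE, limma unadjusted p = 0.007, adjusted p = 0.257). Atf3, a stress-induced transcription factor, had 5.17, 4.88 and 2.40 in the double mutants and 2.72, 1.44 and 1.55 in the ApoE-/- hearts, with library 6 of the double mutants below library 1 of the ApoE-/- hearts (0.81 ± 0.27 SE, adjusted p = 0.327). Of the 6 tested genes of the immediate early list 3 lay above and 3 below 0. Egr1 and Junb had log2 differences of -0.27 and -0.21. Fos and Fosb, of the same list, were below the filter. Fos had 0.706, 0.632 and 0.602 scaled FPKM in the double mutants, below the 0.934, 0.892 and 1.48 in the ApoE-/- hearts. Fosb had 0.164, 0.103 and 0.055 in the double mutants and 0.087, 0.096 and 0.155 in the ApoE-/- hearts, with overlap.

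Among the remaining lists of cell content, Tnnt2, cardiac troponin T, had 4865, 4513 and 3559 scaled FPKM in the double mutants and 2361, 3449 and 3420 in the ApoE-/- hearts (0.50 ± 0.22 SE, adjusted p = 0.419). Of the 6 cardiomyocyte genes 5 lay above and 1 below 0, the calcium channel gene Ryr2 at -0.56 ± 0.51 SE. Acta2, smooth muscle actin, had 52.3, 37.1 and 34.1 in the double mutants and 30.1, 21.8 and 26.6 in the ApoE-/- hearts (0.62 ± 0.20 SE, adjusted p = 0.295). Of the 3 smooth muscle genes tested 2 lay above 0, and Myh11 had a log2 difference of -0.08. The fourth, Cnn1, was below the filter, at 0.530, 0.370 and 0.410 in the double mutants and 1.64, 0.258 and 0.504 in the ApoE-/- hearts. Col3a1, a fibrillar collagen, had 31.9, 29.3 and 33.3 in the double mutants and 61.1, 73.8 and 55.1 in the ApoE-/- hearts (-0.98 ± 0.14 SE, adjusted p = 0.186). The groups did not overlap for Tnnt2, Acta2 or Col3a1, and none of the 3 passed the adjusted threshold.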
